A study of Mus musculus with 3 samples.

Results

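Chromatin regions that carried an H3K27ac peak in Arid1a heterozygous and in wild-type MIN6 cells, and none in Arid1a homozygous knockout cells, are described here. They were found by merging overlapping peaks of the 3 genotypes and keeping each merged region with a heterozygous and a wild-type peak and no homozygous peak. Of 52938 merged regions in all, 3481 met this rule. These regions were chosen by the peak calls of the 3 libraries, so that their presence in 2 genotypes and absence in the third is the definition and not a finding. A region without a called peak may still carry acetylation below the caller's threshold.

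MIN6 is a mouse insulinoma line used as a model of the pancreatic beta cell. Per the labels, the cells were made to express Cas9 from a lentivirus under blasticidin selection, then received a lentivirus with a guide RNA against Arid1a under puromycin selection. Single-cell clones were picked and sorted into homozygous knockout, heterozygous knockout and wild type by PCR genotyping and Western blotting, so that by the labels Cas9 and guide are part of the history of every genotype. The wild-type peak names carry a GAL4 tag that no label explains, so that this rests on the labels alone for the wild type. Each genotype is represented by 1 ChIP library made with the antibody ab4729, with no replicate, so that what differs between genotypes cannot be told apart from what differs between clones or between libraries. No test across samples and no p-value is given.

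ARID1A is a DNA-binding subunit of the canonical BAF form of the SWI/SNF chromatin remodelling complexes, which use ATP to move or evict nucleosomes. H3K27ac, acetylation of lysine on the tail of histone H3, is placed mainly by the acetyltransferases p300 and CBP and marks active promoters and active enhancers. Loss of ARID1A in other cell types is known mostly for reduced accessibility and acetylation at enhancers away from promoters.

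The guide given in the labels is shown first because it defines the genotypes. Its bases are in lower case and the PAM next to them in capitals.

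Arid1a guide: gctgctgctgatacgaaggtTGG

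Sequences of 6 promoters that the homozygous list lacked are shown because promoters were the rarest place for a missing region. The first 5 are those with the highest fold enrichment in both remaining genotypes among regions at a gene end more than 1 kb from any homozygous peak for which RefSeq lists a promoter, and the sixth belongs to Syt9, at which every shared region was missing. Each runs from 250 bases before to 50 bases after a transcription start on RefSeq's GRCm38.p6, the assembly behind mm10, and CpG dinucleotides are in capitals.
Pxmp4, chr2:154603624-154603923, minus strand: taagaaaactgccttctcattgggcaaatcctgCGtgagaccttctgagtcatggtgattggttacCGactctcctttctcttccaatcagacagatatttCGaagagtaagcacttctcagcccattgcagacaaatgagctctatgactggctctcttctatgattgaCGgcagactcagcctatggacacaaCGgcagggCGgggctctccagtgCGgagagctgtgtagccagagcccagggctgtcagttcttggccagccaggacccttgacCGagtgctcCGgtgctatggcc
Sash1, chr10:8886021-8886320, minus strand: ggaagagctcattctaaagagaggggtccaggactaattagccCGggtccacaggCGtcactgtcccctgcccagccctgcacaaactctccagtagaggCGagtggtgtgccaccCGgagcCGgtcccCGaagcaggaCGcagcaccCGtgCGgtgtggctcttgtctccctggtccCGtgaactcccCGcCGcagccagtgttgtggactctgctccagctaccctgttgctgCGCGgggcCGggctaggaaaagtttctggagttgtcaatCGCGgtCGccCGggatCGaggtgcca
Zscan18, chr7:12780622-12780921, minus strand: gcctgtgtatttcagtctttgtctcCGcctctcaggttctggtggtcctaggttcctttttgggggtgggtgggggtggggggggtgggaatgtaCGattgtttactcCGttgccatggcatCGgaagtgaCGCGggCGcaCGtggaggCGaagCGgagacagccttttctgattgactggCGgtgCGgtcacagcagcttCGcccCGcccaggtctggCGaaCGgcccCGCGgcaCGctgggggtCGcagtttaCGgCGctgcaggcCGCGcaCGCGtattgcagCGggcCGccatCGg
Tcaf1, chr6:42710066-42710365, minus strand: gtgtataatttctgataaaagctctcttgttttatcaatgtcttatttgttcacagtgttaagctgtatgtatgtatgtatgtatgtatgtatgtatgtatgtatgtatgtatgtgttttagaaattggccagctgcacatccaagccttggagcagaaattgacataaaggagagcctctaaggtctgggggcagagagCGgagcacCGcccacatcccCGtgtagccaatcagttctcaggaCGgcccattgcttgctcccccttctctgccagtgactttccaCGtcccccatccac
Cdca7l, chr12:117843611-117843910, plus strand: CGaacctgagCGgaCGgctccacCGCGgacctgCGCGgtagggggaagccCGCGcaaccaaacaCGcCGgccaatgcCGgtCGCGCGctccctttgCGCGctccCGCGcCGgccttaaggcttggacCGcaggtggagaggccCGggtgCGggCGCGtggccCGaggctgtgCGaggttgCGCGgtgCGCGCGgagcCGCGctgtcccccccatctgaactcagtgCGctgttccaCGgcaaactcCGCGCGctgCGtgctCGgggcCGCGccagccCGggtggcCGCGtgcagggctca
Syt9, chr7:107370540-107370839, plus strand: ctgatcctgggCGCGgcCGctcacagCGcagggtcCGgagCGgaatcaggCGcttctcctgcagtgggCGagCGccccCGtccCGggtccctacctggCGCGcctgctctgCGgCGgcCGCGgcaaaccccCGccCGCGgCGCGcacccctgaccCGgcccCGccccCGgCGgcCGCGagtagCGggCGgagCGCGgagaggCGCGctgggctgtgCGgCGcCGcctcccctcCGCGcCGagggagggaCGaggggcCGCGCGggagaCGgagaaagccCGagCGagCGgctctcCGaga
These promoters span a wide range of CpG content. Tcaf1 has 5 CpG dinucleotides and Pxmp4 has 9, while Sash1 has 20, Zscan18 has 29, Cdca7l has 46 and Syt9 has 49. The peak regions cover all 300 bases at Sash1, Cdca7l and Syt9, but 97 bases at Pxmp4, 43 at Zscan18 and 14 at Tcaf1. At every one of these genes most of the merged region lay outside the printed promoter.

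The homozygous, heterozygous and wild-type lists held 34298, 31365 and 41490 peaks, and 32635, 29237 and 39889 merged regions. The depth of the libraries in reads is unknown. The number of reads stacked at each peak's summit could be worked back from its fold enrichment and p-value, and its median was 54 in the homozygous, 47 in the heterozygous and 49 in the wild-type list. The lowest local background was 1.73 reads in the homozygous, 1.73 in the heterozygous and 2.17 in the wild-type library. Arid1a itself had 6 homozygous, 4 heterozygous and 5 wild-type regions, none of them missing only from the homozygous list, and H3K27ac there does not check the knockout. All 10 beta cell marker genes had a region in every genotype. Those 10 genes had 41 homozygous, 39 heterozygous and 48 wild-type regions in sum. Of 4 acinar and 3 duct marker genes, Cela1 and Krt19 had 1 heterozygous region each, and the other lists held none. A longer list of 17 acinar and duct genes, used below, had 11 regions shared by heterozygous and wild-type cells. In the same order of genotypes, alpha cell markers had 5, 6 and 9 regions, delta cell markers 0, 1 and 1 and fibroblast markers 1, 6 and 3. The endothelial and immune markers had 3 homozygous, 9 heterozygous and 9 wild-type regions, with 4 of the missing regions at Pecam1 and Ptprc, and their part in the results was not tested.

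The homozygous list lacked a minority of the regions that the other genotypes shared. Of 22985 regions with a heterozygous and a wild-type peak, 3481 had no homozygous peak, which is 15.1%. The mirror set, regions with a homozygous and a wild-type peak and no heterozygous peak, counted 4663 of 24167, or 19.3%. Missing regions of this kind were therefore no more frequent in the homozygous than in the heterozygous library. With lists of equal length, the counts were 2830 missing from the homozygous and 2910 missing from the heterozygous list. Where the text below gives a value for the mirror set, it shows how far a trait of the 3481 regions also holds for peaks missing from the other knockout library.

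The regions missing from the homozygous list lay mostly away from promoters. Of the 3481, 737 lay at a gene end, meaning within 1 kb of a RefSeq transcription start or, for genes with no listed start, within 1 kb of either end of the gene. That is 21.2% (Wilson 95% interval 19.8 to 22.6), against 63.0% (62.3 to 63.7) of the 19504 regions with a peak in all 3 lists. Another 1316, or 37.8%, lay inside a gene and 1428, or 41.0%, between genes, against 18.1% and 18.96% of the regions in all 3 lists. No protein-coding gene end lay within 100 kb of 577 of them, or 16.6%, against 6.03% of the regions in all 3 lists. All intervals here cover counting error only.

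Seen from the shared regions, the homozygous list lacked 5.66% of those at a gene end, 27.2% of those inside a gene and 27.9% of those between genes. For all distal regions, those not at a gene end, the share was 27.5%. The mirror set showed the same order between gene ends and the rest, with 6.53% missing from the heterozygous list at a gene end, 38.7% inside a gene and 29.9% between genes. The excess of distal positions was therefore seen in both knockout lists. Positions inside genes made up 37.8% of the regions missing from the homozygous list, against 47.8% of the mirror set.

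Peaks in the missing regions were smaller than those shared by all genotypes. The strongest peak of each region had a median width of 382 bp in the heterozygous and 454 bp in the wild-type list. For regions in all 3 lists these widths were 576 and 697 bp. The merged regions had a median width of 553 bp, against 819 bp for regions in all 3 lists and 538 bp for the mirror set. Regions in all 3 lists join peaks of more lists, so that their merged width is not like for like. The median fold enrichment, the authors' ratio of summit to local background within a library, was 5.13 in the heterozygous list with quartiles of 4.15 and 6.22, against 6.89 for regions in all 3 lists. In the wild-type list it was 5.33, against 7.13. By −log10 q, the median missing region ranked at percentile 31.2 of the heterozygous and 40.3 of the wild-type list.

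**Figure D1:**
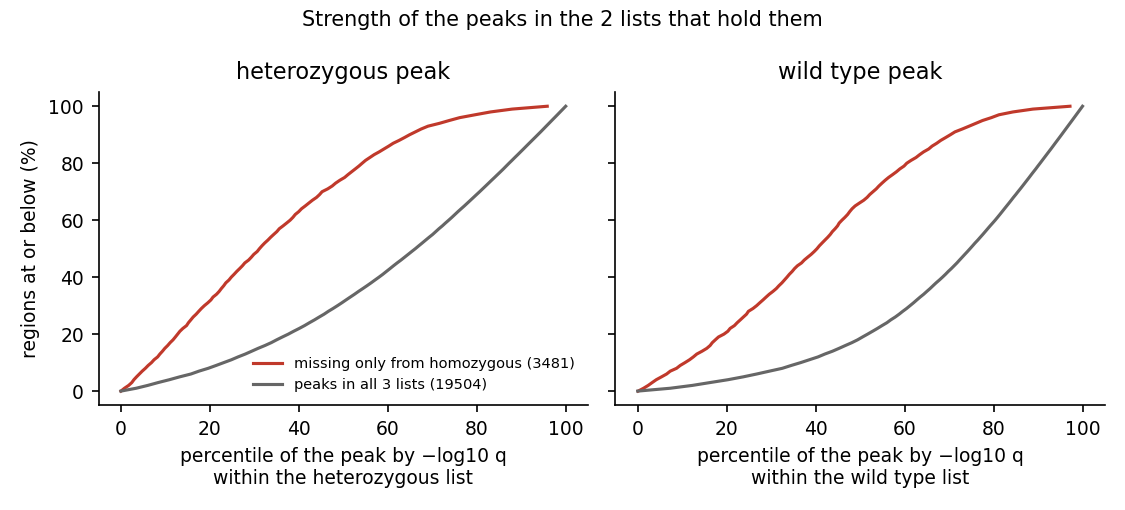
Cumulative share of regions (vertical axis, %) by the percentile of their peak by −log10 q within the heterozygous list (left) and the wild-type list (right), for the 3481 regions missing only from the homozygous list (red) and the 19504 regions with peaks in all 3 lists (grey). The red curves rise earlier, with medians at percentile 31.2 in the heterozygous and 40.3 in the wild-type list.

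The share of missing regions varied with strength and with place. Among 12924 shared regions at or above the median −log10 q of both lists, called strong here, 452 or 3.5% had no homozygous peak, against 3029 of 10061 or 30.1% of the others. Ranked by the weaker of the heterozygous and wild-type peaks, the share missing from the homozygous list among distal regions was 43.4% below percentile 25 and 28.5% between 25 and 50. It was 14.02% (326 of 2326) between percentiles 50 and 75, 5.09% (41 of 805) between 75 and 90, and 1.66% (5 of 301, interval 0.712 to 3.83) above 90. At gene ends the shares over the same ranks were 31.0%, 11.99%, 1.94%, 0.091% (3 of 3295) and 0 of 2225 (interval up to 0.172%). Within each rank the share was lower at gene ends than at distal regions.

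The mirror set followed the same 2 trends. Its distal shares were 57.0%, 36.8%, 13.5%, 2.97% and 0.309% (1 of 324) over the same ranks. Below percentile 50 these were above the homozygous shares. Above percentile 75, a range pooled after the values were seen, the homozygous share was the higher one, with 46 of 1106 distal regions missing, or 4.16% (3.13 to 5.50), against 26 of 1165 missing from the heterozygous list, or 2.23% (1.53 to 3.25). This difference was not tested.

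**Figure D2:**
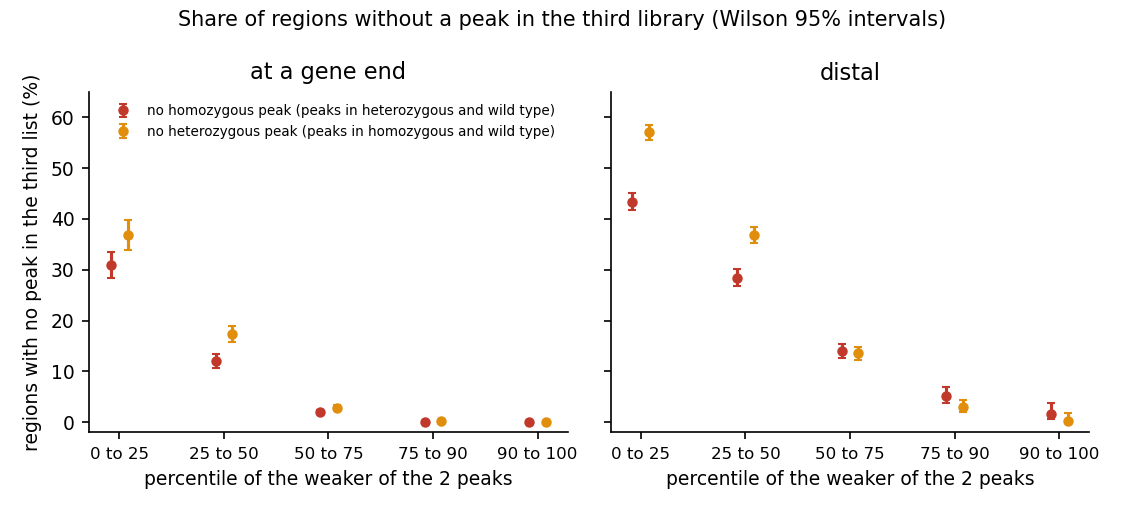
Share of regions without a peak in the homozygous list, among regions with heterozygous and wild-type peaks (red), and without a peak in the heterozygous list, among regions with homozygous and wild-type peaks (orange), in % on the vertical axis, by the percentile of the weaker of the 2 peaks on the horizontal axis. Bars are Wilson 95% intervals; the left panel holds regions at a gene end and the right panel distal regions, where the red share was 43.4% below percentile 25 and 1.66% above percentile 90.

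At the summit, the missing regions had a median of 32 reads in the heterozygous and 38 in the wild-type library, against 59 and 83 for regions in all 3 lists. A heterozygous summit of at least 54 reads, the median of homozygous peaks, was found in 755 of them (21.7%), against 56.6% of the regions in all 3 lists. Every missing region is by the rule a called heterozygous peak, so that these values do not show how many would have been called at that height in the homozygous library, which was not tested.

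Most of the regions lay more than 1 kb from any homozygous peak. The nearest homozygous peak lay at a median of 15020 bp, with quartiles of 3035 and 54337 bp and a range of 2 to 2774428 bp. For 740 regions, 21.3%, it lay within 1 kb, and the other 2741 are called isolated. The regions within 1 kb were at a gene end in 40.4% of cases and strong in 7.43%, with a median width of 410.5 bp. The isolated regions were at a gene end in 438 cases or 15.98% and strong in 14.5%, with a median width of 609 bp. A homozygous peak lay within 10 kb of 42.0% of all the missing regions. The mirror set was spaced much alike, with the nearest heterozygous peak at a median of 16332 bp, within 1 kb for 22.6% and within 10 kb for 40.7%. At the edge of the rule, 2 regions had a homozygous peak within 10 bp and 49 within 100 bp. Just on the other side of it, 2 regions of all 3 lists overlapped by no more than 10 bp and 11 by no more than 100 bp, and 20 had a homozygous peak with a −log10 q under 5, the lowest at 4.18.

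The missing regions were spread over many genes. Assigned to the nearest end of a protein-coding gene within 100 kb, 2904 of them fell to 2092 genes, of 11680 genes with a region shared by heterozygous and wild-type cells (17.9%). Of these genes 1540 had exactly 1 missing region, 552 had 2 or more, 170 had 3 or more and 18 had 5 or more. A region in all 3 lists remained at 1449 of the 2092 genes. No homozygous region of any kind was assigned to 514 genes, 4.4% of the 11680, and at 260 of these a missing region lay at a gene end. A homozygous peak inside a gene is not counted for it if over 100 kb from its ends or nearer to another gene's end. Among the 2083 genes with 3 or more shared regions, 39 or 1.87% were left with none. Nearness does not show that a region acts on the gene.

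Syt9 encodes synaptotagmin 9, a calcium sensor of vesicle exocytosis, and had 0 homozygous, 7 heterozygous and 8 wild-type regions. All 7 regions shared by heterozygous and wild-type cells were missing from the homozygous list. The one at its start, chr7:107370127-107371650, had a fold enrichment of 6.70 in the heterozygous and 7.53 in the wild-type list, and the nearest homozygous peak lay 1057325 bp away. The other 6 lay inside the gene, with fold enrichments of 3.73 to 5.44 in heterozygous and 3.52 to 7.34 in wild-type cells.

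Crtac1 encodes a secreted matrix protein first described in cartilage and had 0 homozygous, 8 heterozygous and 11 wild-type regions. Of its 6 missing regions 4 were strong and 2 lay at a gene end. The one with the highest enrichment, chr19:42470998-42472555, lay 38032 bp beyond the higher-coordinate end of the gene. Its fold enrichment was 7.01 in heterozygous and 7.03 in wild-type cells. Homozygous peaks flanked the locus, the nearest to this region being 46228 bp away.

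Lrp5, a co-receptor for Wnt ligands, had 0 homozygous, 6 heterozygous and 7 wild-type regions, and all 5 shared ones were missing. They lay inside the gene or at a gene end, which as defined above can be a transcription start. Their fold enrichments were 3.34 to 6.01 in heterozygous and 4.06 to 7.45 in wild-type cells. Ephb3, a receptor tyrosine kinase for membrane-bound ephrins, had 0 homozygous, 4 heterozygous and 7 wild-type regions. Its 4 missing regions all lay outside the gene, 2 of them with fold enrichments of about 9 in heterozygous cells (8.95 and 9.21) and 10.9 and 9.76 in wild-type cells. Elmo1, an adaptor that activates Rac together with DOCK proteins, had 0 homozygous, 6 heterozygous and 8 wild-type regions, and its strongest missing region covered the gene's end (6.17 in heterozygous and 8.06 in wild-type cells). Rapgef5, an exchange factor for Rap GTPases, had 0 homozygous, 10 heterozygous and 6 wild-type regions. Cables1, a partner of Cdk5, had 0, 5 and 4 and Grip1, a scaffold that binds glutamate receptors, had 0, 4 and 4 homozygous, heterozygous and wild-type regions. These 8 genes, Syt9 and Crtac1 included, were chosen as those with the most missing regions among genes left with no homozygous region. That no homozygous region was assigned to them, while both other lists held at least 4, follows from this choice. Homozygous peaks nearer to other genes did lie in the surroundings, 21037 bp from a missing region of Lrp5 and 21346 bp from one of Ephb3.

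**Figure D3:**
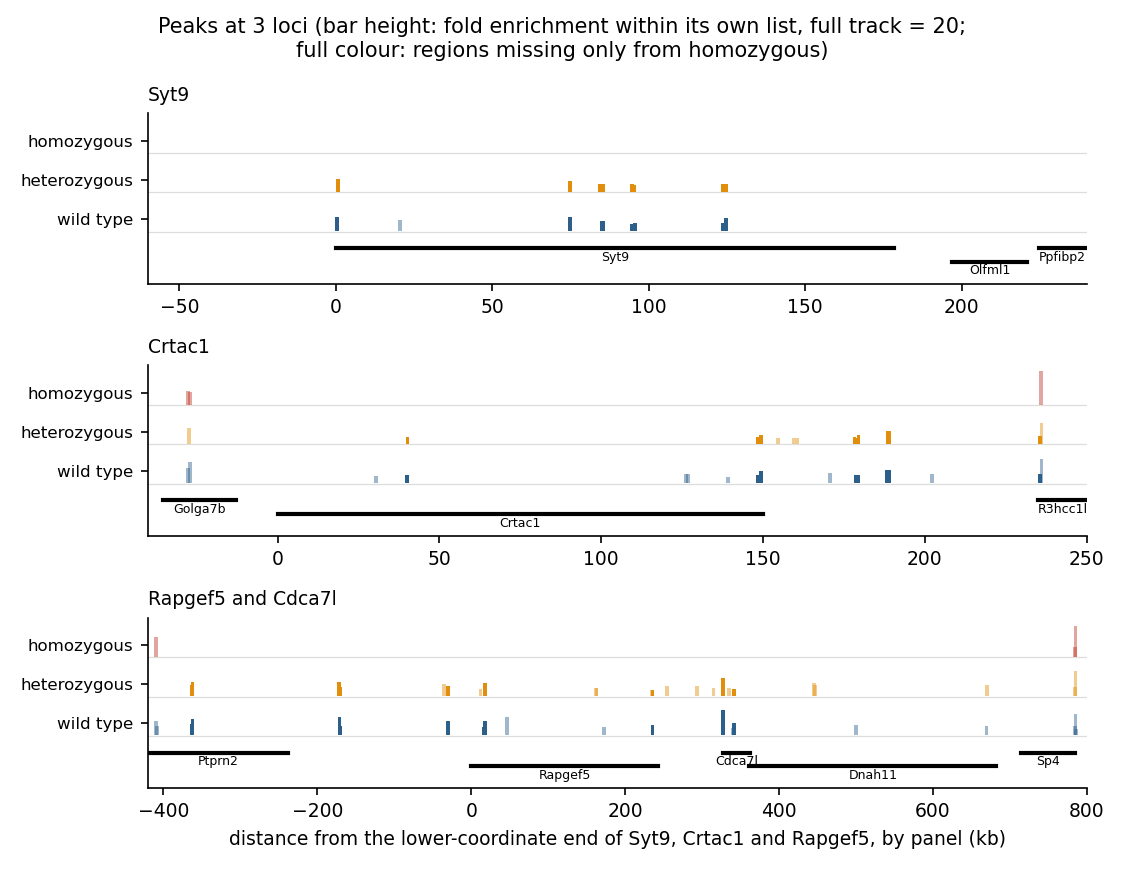
Peaks of the homozygous (top row of each panel, red), heterozygous (orange) and wild-type (blue) lists at 3 loci, placed by distance in kb from the lower-coordinate end of the gene named, with bar height giving the fold enrichment within its own list. Full colour marks the regions missing only from the homozygous list and black bars mark genes; the Syt9 panel holds no homozygous peak.

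Other genes had many regions missing but kept some. Mapk4, which encodes the atypical MAP kinase ERK4, had the most, with 11 of 12 shared regions missing and 1 homozygous, 13 heterozygous and 16 wild-type regions. The 1 region it kept had a fold enrichment of 12.4 in homozygous, 6.65 in heterozygous and 8.16 in wild-type cells. Rbm19, an RNA-binding protein of ribosome assembly, had 8 of 9 shared regions missing, with 1 homozygous, 12 heterozygous and 12 wild-type regions. Its 8 missing regions all lay between genes, 30241 to 99411 bp from the higher-coordinate end of the gene. Frmd4b, a FERM domain protein, had 7 of 8 missing and Kif13b, a kinesin motor, 6 of 7. Gdap1l1, Rtl6 and 1700122O11Rik each had 6 of 7 missing. Capn9, a calpain protease, had 5 of 5 missing, and Pja1, a ubiquitin ligase, 5 of 6. Cplx2, a complexin that binds the SNARE machinery of exocytosis, had 5 of 6 missing. It had 3 homozygous regions, against 8 heterozygous and 13 wild-type regions.

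Missing regions of high enrichment were few. Both peaks ranked in the top 10% of their lists by fold enrichment at 12 of the 3481 regions (0.345%), against 2395 of the 19504 regions in all 3 lists (12.3%). Among isolated regions, the highest lay near Mog, the gene of a myelin surface protein, at chr17:37028704-37029387. Its fold enrichment was 17.99 in the heterozygous and 14.04 in the wild-type list, with the nearest homozygous peak 16660 bp away. A region inside Camk1d, a calcium/calmodulin-dependent kinase, at chr2:5379135-5379487 had 12.8 in the heterozygous and 19.2 in the wild-type list, with a homozygous peak 2248 bp away. A region 11962 bp from Klf4, a zinc finger transcription factor, at chr4:55514730-55515175 had 12.7 in the heterozygous and 18.8 in the wild-type list. The region near Ear10, chr14:43925271-43926067, had 15.6 in the heterozygous and 12.4 in the wild-type list, and no homozygous peak lay within 1292727 bp. The regions near Skint11, Slc39a11 and Plk5 had 11.7 to 12.4 in the heterozygous and 11.8 to 13.5 in the wild-type list.

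At gene ends, the isolated regions with the highest enrichment belonged to Pxmp4, Sash1, Cdca7l, Zscan18 and Tcaf1, whose promoters are printed above, and to Sult4a1. The region at Pxmp4, a peroxisomal membrane protein, had a fold enrichment of 12.4 in heterozygous and 12.02 in wild-type cells. The one at Sash1, a scaffold protein with SAM and SH3 domains, had 10.8 in heterozygous and 11.9 in wild-type cells, with the nearest homozygous peak 199972 bp away. The region at Cdca7l covered its CpG-rich promoter whole and had 9.81 in heterozygous and 13.6 in wild-type cells, with no homozygous peak within 456421 bp. Zscan18 had 10.4 in heterozygous and 10.6 in wild-type cells and Tcaf1, a partner of the cold channel TRPM8, had 10.0 in heterozygous and 12.9 in wild-type cells. Sult4a1, a brain sulfotransferase, had 9.65 in heterozygous and 9.22 in wild-type cells.

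Promoters overlapped by the missing regions were rich in CpG, as active promoters usually are. RefSeq lists a promoter for 17492 of 21887 protein-coding genes, and the missing regions overlapped 488 of the 21238 distinct promoter windows, at 448 genes. Their median ratio of observed to expected CpG was 0.742, against 0.817 for 9277 promoters overlapped by regions in all 3 lists, 0.712 for 474 promoters of the mirror set and 0.240 for 10638 promoters with no peak. A ratio of at least 0.6 was found in 73.4% of them (69.3 to 77.1), against 83.3% for all 3 lists, 64.8% for the mirror set and 47.7% of all promoters. Promoters overlapped by regions missing from either knockout list thus had a lower median CpG ratio than those overlapped by regions in all 3. Of the 737 missing regions at a gene end, 299 had a homozygous peak within 1 kb, so that an overlapped promoter may lie beside such a peak.

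**Figure D4:**
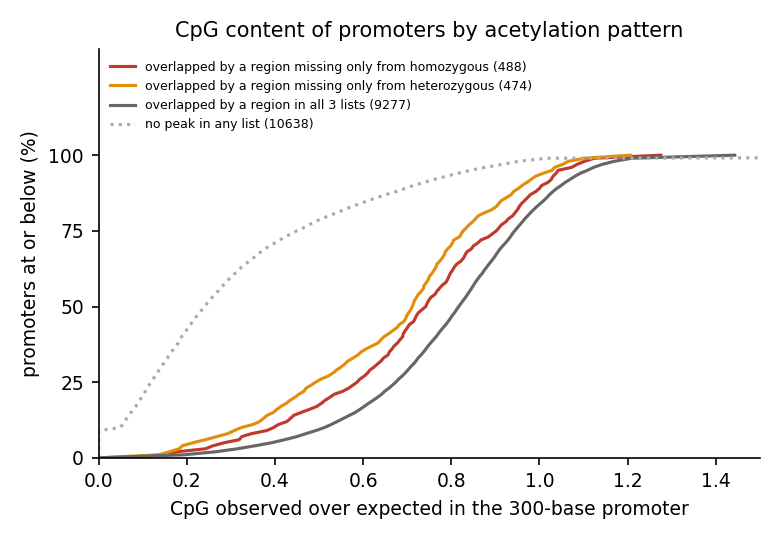
Cumulative share of promoters (vertical axis, %) by the ratio of observed to expected CpG in the 300-base promoter (horizontal axis), for promoters overlapped by regions missing only from the homozygous list (red, 488), missing only from the heterozygous list (orange, 474), in all 3 lists (dark grey, 9277) and with no peak (dotted, 10638). The red and orange curves lie between the other ones, close to that of all 3 lists, with medians of 0.742 and 0.712 against 0.817.

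Short motifs were searched on both strands of these windows. TGACGTCA, the binding sequence of CREB and ATF factors, was in 25 of 488 promoters of the missing regions, 5.12% (3.49 to 7.45), against 1.69% of the mirror set, 3.84% of those in all 3 lists and 2.24% of all promoters. TGANTCA, the AP-1 sequence, was in 2.66%, against 3.16%, 3.78% and 6.99% in the same order. GGGCGG, the Sp1 box, was in 71.1%, against 68.4%, 69.7% and 46.2%. CCAAT was in 34.2% (30.1 to 38.5), against 46.4% (42.0 to 50.9) of the mirror set, 38.8% of those in all 3 lists and 38.2% of all promoters. TATAAA was in 7.99%, CAGGTG, an E-box, in 19.7% and TGTTTAC, a forkhead sequence, in 3.28%, against 12.6%, 19.7% and 3.00% of all promoters. Of the printed promoters Syt9 holds 3 GGGCGG boxes, Pxmp4 holds 3 CCAAT boxes and 1 TGANTCA match, and Cdca7l holds 1 CAGGTG match. These matches describe letters in a window and not bound sites.

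Genes of voltage-gated and potassium channels, which set the electrical activity that drives insulin release, had the largest share missing among 19 gene lists. Of 50 regions shared by heterozygous and wild-type cells at these genes, 23 were missing, 46.0% (33.0 to 59.6), against 13.7% of all regions assigned to a gene. Among distal regions it was 21 of 40, 52.5%, against 26.4% of all distal regions assigned to a gene. The mirror count was 14 of 41, 34.1%, so that channel regions were also often missing from the heterozygous list. Only 1 of the 23 was strong, and among strong peaks alone the share was 1 of 13, 7.69%, against 3.08% of all strong regions assigned to a gene. Among strong peaks alone it was no longer the largest of the lists. Regions of 1 gene are not independent of each other, and a list is described here by its count alone.

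Within the channel list the missing regions fell to 13 of 16 genes. Kcnj6, a G protein-gated inward rectifier, had 3 of 8 missing, and Kcnmb2, an auxiliary subunit of BK channels, 3 of 3. Kcnmb2 nevertheless had 6 homozygous regions, against 4 heterozygous and 6 wild-type regions, since the homozygous list held others at the gene. Cacna1h, a T-type calcium channel, had both shared regions missing and no homozygous region, against 2 heterozygous and 4 wild-type regions. Scn3a, a sodium channel, also had 2 of 2 missing, with 0 homozygous, 3 heterozygous and 3 wild-type regions.

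Among beta cell transcription factors, 14 of 47 shared regions were missing, 29.8% (18.7 to 44.0), and 19 of 52 in the mirror set, 36.5%. Only 1 of the 14 was strong. Of the distal regions of this list 11 of 30 were missing from the homozygous list, 36.7% (21.9 to 54.5). That interval includes the 26.4% of all distal regions assigned to a gene. Nkx6-1 had 2 of 4 and Isl1 2 of 5 missing, in each case distal regions, and both had 5 homozygous regions. Foxa1 had its only shared region missing. Nkx2-2, Pax6, Foxa2, Rfx6, Myt1 and Glis3 each had 1 missing and had at least 2 homozygous regions.

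Of regions at secretory and glucose sensing genes, 15 of 91 were missing, 16.5% (10.3 to 25.4), near the background of 13.7%. Slc30a8, the zinc transporter of insulin granules, had 3 of 8 missing and Ptprn2, a granule membrane protein, 2 of 4. Neither insulin gene had a missing region. Ins1 had 4 regions in each genotype, and Ins2 had 3 homozygous, 4 heterozygous and 2 wild-type regions.

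Of incretin, prolactin and cAMP signalling regions, 15 of 62 were missing, 24.2% (15.2 to 36.2), against 11 of 58 in the mirror set, 18.97%. Gipr, the receptor of the incretin GIP, had 3 of 6 missing, but homozygous peaks lay only 180 and 218 bp from 2 of them. Adcy1, an adenylyl cyclase, had 2 of 2 missing, Pde4d, a cAMP phosphodiesterase, 2 of 3, and Prkar1a, a regulatory subunit of protein kinase A, 2 of 3. None of the 15 was strong. Of the distal regions of this list 12 of 39 were missing from the homozygous list, 30.8% (18.6 to 46.4), an interval that includes the distal share of 26.4%.

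At genes of EGF signalling the shares lay near the 13.7% of all gene-assigned regions. Hbegf, an EGF family ligand, had 1 of 4 shared regions missing, the only one among 9 regions of that list. Of 41 regions at ErbB receptors and regulators, 4 were missing, 9.76% (3.86 to 22.5), at Gab2, Plcg1, Adam10 and Adam17, an adaptor, a phospholipase and 2 proteases that shed membrane-bound ligands. With lists of equal length it was 6 of 39, 15.4%, against 12.1% of all gene-assigned regions. Of 70 at MAPK and immediate early genes, 8 were missing, 11.4%. Of these 3 were at Jun, a subunit of AP-1, which had 6 homozygous regions, against 7 heterozygous and 8 wild-type regions. Of 33 at other receptor tyrosine kinases, 8 were missing, 24.2%, against 20 of 45 in the mirror set, 44.4%. Fgfr2 had 2 of 2 missing and had 4 homozygous regions, of which 3 held no wild-type peak.

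The remaining lists are set against the same 13.7%. Subunits of SWI/SNF itself had 6 of 48 missing, against 13 of 55 in the mirror set, 23.6%. All 6 were distal, 2 each at Brd7 and Bicra and 1 each at Smarca2 and Bcl7c. Genes normally silent in beta cells had 9 of 26 missing, 34.6% (19.4 to 53.8), led by Smad3 and Acot7 with 2 each. Of their distal regions 6 of 16 were missing, 37.5% (18.5 to 61.4), an interval that includes the distal share of 26.4%. YAP and TEAD targets had 5 of 21, 23.8%, 3 of them at Tead1, which had 12 homozygous regions. With no homozygous peak within 1 kb it was 2 of 21, 9.52%, against 10.6% of all gene-assigned regions, and with genes assigned within 20 kb it was 0 of 6. Neuronal and axon guidance genes had 7 of 40, 17.5%, and 3 of these were the 3 shared regions of Nrxn3, a presynaptic adhesion protein. No homozygous region was assigned to Nrxn3. Alpha and delta cell markers had 2 of 8, acinar and duct markers 2 of 11 and mesenchymal markers 1 of 8, counts whose intervals all include 13.7%. Islet progenitor genes had 3 of 32, 9.38%.

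The smallest shares were at cell cycle and housekeeping genes. Of the cell cycle regions 1 of 37 was missing, 2.70% (0.479 to 13.8), at E2f1, and none of the 11 distal ones (interval up to 25.9%). Of the housekeeping regions 2 of 37 were missing, 5.41%, both at Ywhaz, and of unfolded protein response regions 5 of 45, 11.1%. Gene-end regions made up 70.3% of the cell cycle, 67.6% of the housekeeping and 62.2% of the unfolded protein response regions, against 10 of the 50 channel regions. For the islet progenitor and the mesenchymal regions the gene-end share was 25% and 62.5%. Whether the order of the lists follows the gene-end share was not tested. In all, 10 of the 19 lists lay above the share of all gene-assigned regions, and 6 lay above the distal share when gene-end regions were set aside.

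**Figure D5:**
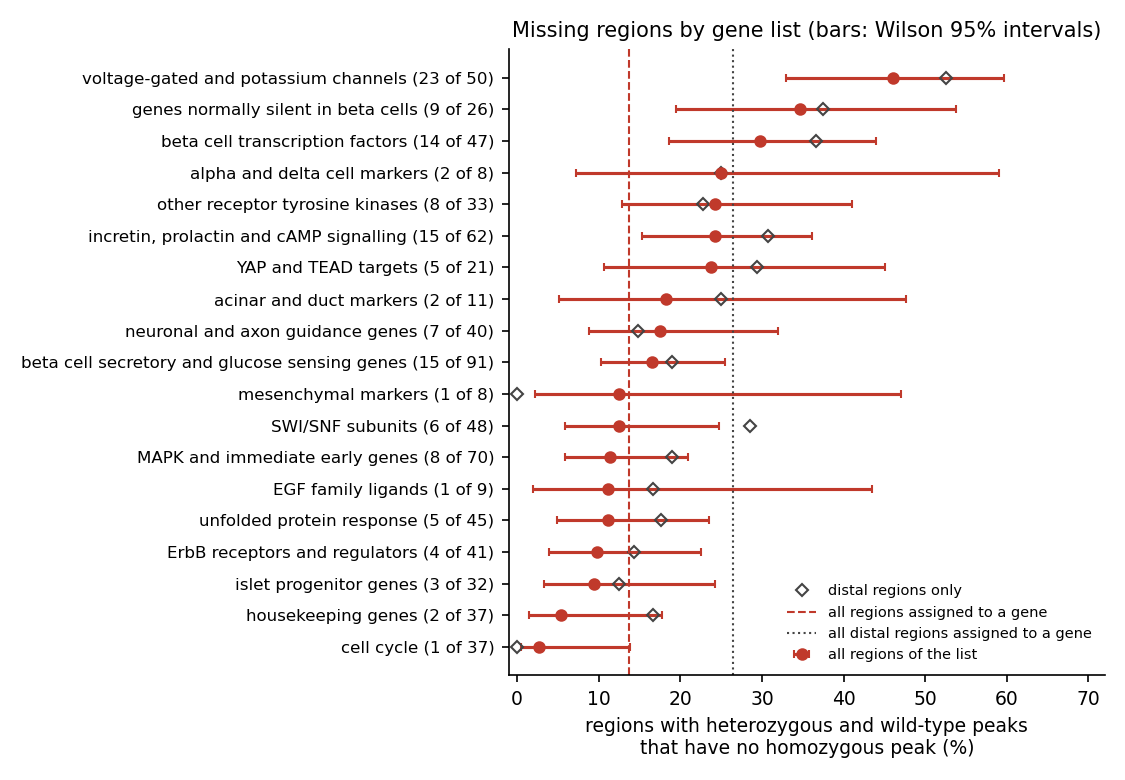
Share of regions with heterozygous and wild-type peaks that had no homozygous peak (horizontal axis, %), for 19 gene lists (vertical axis, missing of shared regions in brackets). Filled points are all regions of a list with Wilson 95% intervals and open diamonds its distal regions; the dashed and dotted lines are the shares of all gene-assigned (13.7%) and all distal gene-assigned regions (26.4%). Channels lie highest at 46.0% and cell cycle genes lowest at 2.70%.

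Some missing regions lay in runs. A run of at least 3 missing regions, with gaps of no more than 12500 bp and no homozygous peak between them, was found 66 times and held 222 regions, 6.38% of all. The mirror set had 74 runs with 236 regions, 5.06%. Runs of 4 or more numbered 18, against 13 in the mirror set, and runs of 5 or more numbered 5, against 1. With lists of equal length the 66 runs became 39. The longest had 6 regions near Mast2 and Ipp at chr4:116483665-116500154, with fold enrichments of 2.99 to 5.39 in heterozygous and 2.3 to 5.43 in wild-type cells. Another 4 runs held 5 regions each. Of these, the runs near Rtl6 at chr15:84531315-84542065 and near Gdap1l1 at chr2:163443138-163459609 spanned 10751 and 16472 bp, the one near Agt and Capn9 spanned 15620 bp and the one at Mapk4 spanned 20329 bp. A single region at a gene end was among the 5 of Agt and Capn9, and none was in the other 4 of these runs. Homozygous peaks lay 6941 bp from the run near Mast2 and Ipp, 15176 bp from that near Rtl6 and 3935 bp from that near Gdap1l1.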

How the data were processed

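H3K27ac was measured by single-end ChIP-seq in 3 MIN6 libraries, 1 per genotype. Peaks were called by the authors per library with MACS2 on mm10 after bcl2fastq, per the submitters' processing notes. Aligner, control, threshold and versions: not given in the sources used here. The deposited lists hold a score, a fold enrichment (ratio), −log10 p and −log10 q per peak, all the authors' values, and peaks were ranked by them only inside their own list. GAL4 is a tag in the wild-type peak names that no label explains. Peaks that overlapped by at least 1 bp or touched were merged (Python 3.11.15, pandas 2.3.3, checked against bedtools 2.31.1). Regions went to the nearest end of a RefSeq protein-coding gene within 100 kb; no genome sequence was used, so exons, introns and UTRs are not given. Summit pile-ups were solved from fold and −log10 p under MACS2's formula. The code was tested on simulated data.

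The members and gene lists were chosen with earlier results of these data known. All 385 listed genes were matched to the RefSeq table. The text names the 12 genes with the most missing regions, the 8 with the most among those left with no homozygous region, the 8 isolated and 6 gene-end isolated regions of highest enrichment, up to 4 genes per list (some are not reported here), Arid1a, Ins1, Ins2 and the 3 longest runs (ties by strong regions, then span); Scn3a, Nkx2-2, Pax6, Foxa1, Foxa2, Rfx6, Myt1, Glis3 the runs of Capn9 and Mapk4 and the promoter of Syt9 were chosen after values were seen. Wilson intervals are 95% and cover counting error only. Alternatives were peak strength, distance, list length, overlap, gene assignment, gene-end distance and run gap.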

Additional observations from a re-analysis of the deposited data

How the results depend on the processing

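With only heterozygous and wild-type peaks at or above the median −log10 q, 452 regions were missing only from the homozygous list and 505 only from the heterozygous list, with 397 isolated regions, 80 at gene ends, 339 genes, 101 genes left with no homozygous region, 3 runs and a median heterozygous fold enrichment of 6.33. Asking for no homozygous peak within 1 kb left 438 gene-end regions and a median fold of 5.37, and within 5 kb 393 and 5.48. With lists of equal length 2830 regions were missing from the homozygous and 2910 from the heterozygous list, with 39 runs and a median fold of 5.24, so that the larger count for the heterozygous library in full lists came close to the homozygous one. A largest gap of 5 kb gave 26 runs and one of 25 kb gave 100. Against the share of all gene-assigned regions, 13 of the 19 lists changed side under at least 1 alternative. Channels, beta cell transcription factors and genes normally silent in beta cells lay above it under all of them, and cell cycle, housekeeping and islet progenitor genes below. With strong peaks only, beta cell factors were above by 1 of 10 regions and silent genes by 1 of 12, against 3.08%. The lists below then had 0 of 23, 0 of 26 and 0 of 10. With no homozygous peak within 5 kb, islet progenitor genes were at 9.38% against 9.41%, close to a tie. Secretory and glucose sensing genes fell to 9.89% against 10.6% with no homozygous peak within 1 kb. The channel list's share was 7.69% (1 of 13) with strong peaks only and 38.0% to 45.8% under the other alternatives. The causes were not tested. No paired analysis was possible because each genotype had 1 library without a replicate number, and for the same reason no library could be left out in turn. A missing peak shows no call at the depth and threshold of 1 library; counting intervals do not cover differences between clones.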

Other observations

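Long stretches of the genome with no homozygous peak held several missing regions. These stretches were looked at after the data were seen. Between 2 neighbouring homozygous peaks, 2453 stretches held at least 1 region missing only from the homozygous list, 41 held 5 or more and 6 held 8 or more. The heterozygous counterpart, stretches without a heterozygous peak, counted 3244, 45 and 6. One stretch of 386 kb with Rbm19 and Lhx5, a LIM homeobox factor, held 11 missing regions, with 15 heterozygous and 18 wild-type regions in all. A stretch of 1193 kb on chromosome 12, chr12:117107347-118300674, with Ptprn2, Rapgef5 and Cdca7l held 10, with 22 heterozygous and 16 wild-type regions. The stretch around Syt9 was 2618 kb long, and its 7 heterozygous regions were all missing regions.

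By chromosome, the share of shared regions missing from the homozygous list was highest on chromosome 12, at 19.7% (17.2 to 22.5), where the share missing from the heterozygous list was also highest, at 24.8% (22.2 to 27.7). It was lowest among autosomes on chromosome 17, at 12.1% (10.3 to 14.2), followed by chromosome 7 at 12.2% and chromosome 3 at 12.4%. On chromosome 3 the heterozygous list lacked 23.4% (21.1 to 25.8). Copy number of the clones was not measured.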
